A study of Mus musculus with 11 samples.

Results

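T cell and cytotoxic lymphocyte genes were examined in colonic RNA of germ-free and humanized mice. The 40 genes were chosen by name and comprise 19 pan-T genes, 7 helper-fate genes, 7 checkpoint genes and 7 cytotoxic genes. Of the 43346 genes counted, 39 were members of this set, and 35 of these were among the 19863 genes that passed the low-expression filter. Trdc had no row under its name or Ensembl identifier and was not analysed here. Mice were male Swiss Webster, aged 8 to 10 weeks, either never colonized (germ-free, n = 5) or inoculated as germ-free animals with 300 μL of stool suspension by gavage at the age of 4 to 5 weeks (humanized, n = 6). The humanized mice were studied 4 to 5 weeks after gavage. All stool came from 1 healthy human donor and females were not included, so neither other donors nor females are represented. Colon tissue was used without cell sorting, and in such bulk RNA fewer cells of a type and less RNA per cell cannot be told apart.

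T cells recognize antigen with a receptor of paired alpha and beta or gamma and delta chains, which signals through the CD3 chains and the kinases Lck and Zap70. The coreceptor CD4 marks helper and regulatory T cells, and CD8 marks T cells that can kill infected or damaged cells by releasing granzymes. In the gut, many CD8-bearing lymphocytes reside between epithelial cells, while CD4-bearing cells are found mainly in the lamina propria, and checkpoint receptors such as PD-1 and TIGIT restrain activated T cells.

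Of the 35 tested members, 13 rose in humanized mice (37.1%), compared with 9.2% of all tested genes (edgeR exact test, FDR below 0.01). None fell, against 10.1% of all tested genes. The same count of 0 was given by edgeR's quasi-likelihood test, whereas DESeq2 called Thy1 lower, and 2 members, Thy1 and Maf, were lower at an unadjusted p below 0.05 in the exact test. The median log2-fold change (LFC, humanized over germ-free) of the members was 0.84, beside 0.0084 for all tested genes, and 29 of 35 LFC values were above 0, beside 51.2% of all tested genes. All 6 humanized mice lay above all 5 germ-free mice for 11 members, which holds for 8.67% of tested genes, and below them for 0 members (9.73% of tested genes). Scaling libraries to 11 epithelial genes instead of TMM gave 7 members higher, 3 lower (Maf, Thy1 and Bcl6) and a median LFC of 0.51, with a median of −0.32 over all tested genes, of which 421 were higher and 5836 lower. Members were expressed at low levels, with germ-free means from 0.0537 (Pdcd1) to 6.33 (Thy1) RPKM (reads scaled to gene length and library size), so few reads stand behind some values. For 6 of the 35 members, namely Gzma, Tigit, Pdcd1, Ctla4, Cd5 and Cd6, at least 1 germ-free mouse was below the cutoff of the filter and the humanized mice were needed to pass it, so their inclusion favours genes higher there. Of the other 29 members, 10 rose (34.5%) and 0 fell, with a median LFC of 0.60, beside 9.06% higher and a median of 0.0054 for the 18691 genes at the cutoff in every germ-free mouse. Library totals were 49097005 to 64148538 counts in germ-free mice and 39125290 to 54219854 in humanized mice. No sequencing batch is given in the labels or the methods, and no comparison within batches was made. A plot of the LFC of each member shows the spread of the differences within each role.

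**Figure D1:**
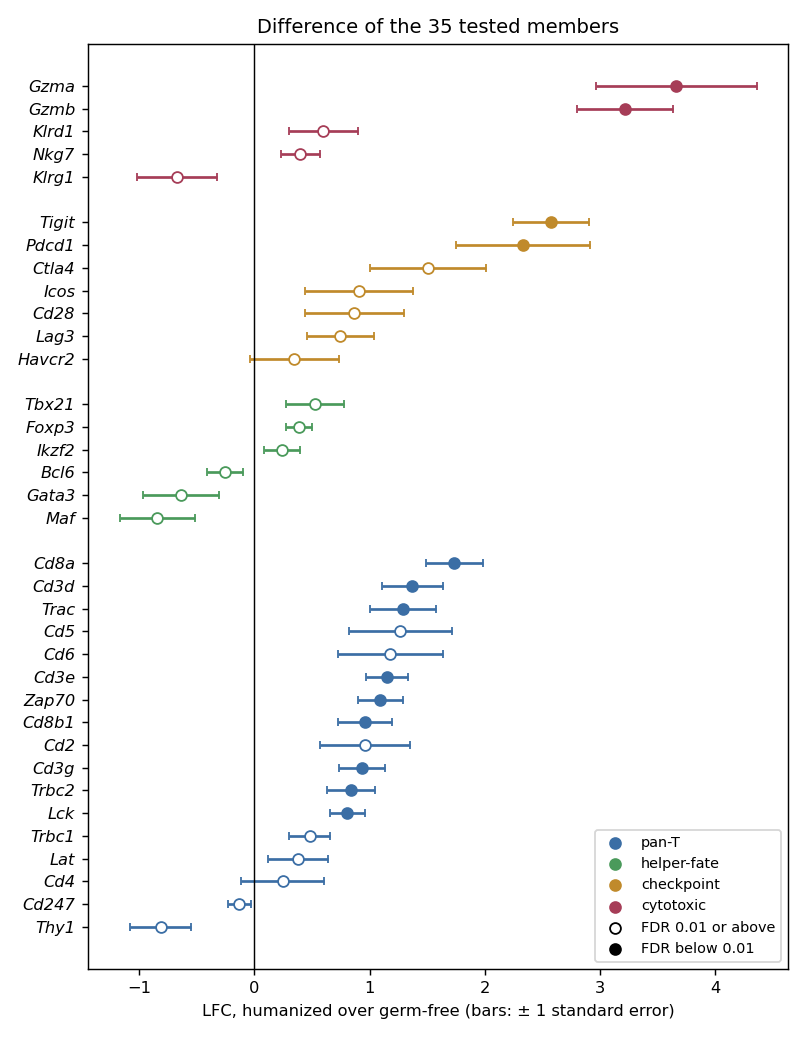
LFC of the 35 tested members (x axis, log2 scale, humanized over germ-free), grouped by role, with filled points for FDR below 0.01 in the edgeR exact test and bars of ± 1 standard error from the quasi-likelihood fit. Gzma (3.66), Gzmb (3.22), Tigit (2.57) and Pdcd1 (2.33) lie farthest to the right, and Maf (−0.84) and Thy1 (−0.81) farthest to the left.

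Among the cytotoxic genes, Gzma and Gzmb, which encode granzymes A and B, the proteases that killer lymphocytes deliver into target cells, rose by the largest LFC values of all tested members. Nkg7, Klrd1 and Klrg1 did not pass the test, so 2 of 5 tested cytotoxic genes were higher and 0 lower, beside 9.2% and 10.1% of all tested genes. Gzma was at the cutoff of the filter in 3 germ-free mice and passed only with the humanized mice, whereas Gzmb was at the cutoff in every mouse. Sequences 300 bases long around the RefSeq start sites (GRCm38.p6, 250 bases before to 50 after) of Gzma, Gzmb and Tigit, the 3 members with the highest LFC among those whose groups did not overlap, are printed 5′ to 3′ to show the promoter region of the most changed genes. Capitals mark TGTGGT, the core letters bound by RUNX factors, and TGACTCA, the AP-1 motif, found on either strand. All 3 genes lie on the minus strand, at chr13:113100932-113101231 (Gzma), chr14:56262285-56262584 (Gzmb) and chr16:43664135-43664434 (Tigit).
Gzma: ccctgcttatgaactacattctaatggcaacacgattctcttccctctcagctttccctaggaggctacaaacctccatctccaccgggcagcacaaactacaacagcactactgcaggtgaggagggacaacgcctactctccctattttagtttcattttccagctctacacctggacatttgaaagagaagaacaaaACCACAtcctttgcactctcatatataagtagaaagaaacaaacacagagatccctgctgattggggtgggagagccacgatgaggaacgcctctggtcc
Gzmb: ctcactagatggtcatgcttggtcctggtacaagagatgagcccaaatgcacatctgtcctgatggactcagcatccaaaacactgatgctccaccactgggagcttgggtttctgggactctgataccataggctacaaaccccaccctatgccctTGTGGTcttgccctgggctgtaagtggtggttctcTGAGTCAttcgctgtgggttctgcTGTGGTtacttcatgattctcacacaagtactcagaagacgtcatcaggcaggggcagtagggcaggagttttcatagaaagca
Tigit: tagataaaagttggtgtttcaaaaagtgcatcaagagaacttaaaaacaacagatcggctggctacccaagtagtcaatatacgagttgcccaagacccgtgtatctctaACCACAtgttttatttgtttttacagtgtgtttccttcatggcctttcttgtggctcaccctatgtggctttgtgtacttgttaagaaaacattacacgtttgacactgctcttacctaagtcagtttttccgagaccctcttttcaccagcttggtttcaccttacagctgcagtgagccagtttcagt

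TGTGGT begins 50 bases before the start of Gzma, 93 and 34 bases before that of Gzmb and 140 bases before that of Tigit, and TGACTCA begins 58 bases before that of Gzmb, where the matches do not overlap. RefSeq windows were found for 23 members, with 28 start sites, of which 9 (32.1%) hold TGTGGT on either strand, beside 16.8% of 32851 mouse promoters of the same length. These 9 belong to Gzma, Gzmb, Havcr2, Lat, Lck, Nkg7, Prf1, Tigit and Zap70. TGACTCA was present in 1 of 28 (5.2% of all promoters), the T-box letters GGTGTGA in 1 of 28, that of Nkg7 (3.98%), and the ETS letters GGAAGTG in 4 of 28, those of Cd247, Cd3d, Cd3e and Lck (11%). A match describes letters only, and no binding was measured. The deposited start of Gzmb lies 74 bases from the RefSeq start, that of Gzma 2 bases, and that of Tigit coincides with it.

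Gzma (ENSMUSG00000023132, chromosome 13, 113093825 to 113100979, mm10) was at 0.163, 0.783, 0.487, 0.109 and 1.19 RPKM in the 5 germ-free mice and from 1.93 to 16.5 RPKM, with a median of 4.20, in the 6 humanized mice. Every humanized mouse exceeded every germ-free mouse, although values spread about as widely within each group, with coefficients of variation of 82.4% and 81.2%. The mean was 12.6-fold higher in humanized mice (LFC 3.66, SE 0.70, exact test FDR = 1.28e-05). Gzmb (ENSMUSG00000015437, chromosome 14, 56258856 to 56262260) was at 0.246, 0.391, 0.506, 0.124 and 0.404 RPKM in germ-free mice and from 1.65 to 5.75 RPKM, median 2.50, in humanized mice. The groups were again separate, with a gap from 0.506 to 1.65 RPKM. The mean rose 9.30-fold (LFC 3.22, SE 0.42, exact test FDR = 3.17e-11). These values rest on 6 to 73 reads per germ-free mouse for Gzma and 11 to 42 for Gzmb, and on 85 to 538 and 112 to 303 reads per humanized mouse.

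Nkg7, a granule membrane protein of killer cells, had 1.57, 1.87, 1.69, 1.66 and 2.05 RPKM in germ-free mice and 1.64 to 3.04 RPKM, median 2.38, in humanized mice. The groups overlapped, and the LFC of 0.40 (SE 0.17) did not pass (exact test FDR = 0.139). Klrg1, an inhibitory receptor of mature effector cells, had 0.449, 0.432, 0.701, 0.600 and 0.455 RPKM in germ-free mice and 0.119 to 0.507 RPKM, median 0.373, in humanized mice, with an LFC of −0.67 (SE 0.35, exact test FDR = 0.148). Humanized mice 1 and 5 were lowest, and humanized mice 2, 3 and 4 lay within the germ-free range. Klrd1, the CD94 chain of NKG2 receptors, had an LFC of 0.60 (SE 0.30, exact test FDR = 0.171). Prf1 (perforin, which forms the pore for granzymes) had 4 to 28 reads per mouse and Ifng (interferon gamma) 0 to 7, and both failed the filter and were not tested. In a run without the filter, neither passed (exact test FDR = 0.693 and 0.942).

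Among the checkpoint genes, Tigit and Pdcd1 rose, and the other 5 of 7 did not pass, beside 9.2% higher over all tested genes. All 7 LFC values were above 0, beside 51.2% of all tested genes, with a median of 0.91. Tigit, Pdcd1 and Ctla4 passed the filter only with the humanized mice, which favours values above 0, and the other 4 genes did not pass the exact test. Tigit (ENSMUSG00000071552, chromosome 16, 43648861 to 43664184), an inhibitory receptor that competes with the activating receptor CD226 for shared ligands, was at 0.313, 0.258, 0.302, 0.233 and 0.119 RPKM in germ-free mice and at 0.848 to 2.38 RPKM, median 1.49, in humanized mice. The groups did not overlap, and the mean was 5.94-fold higher (LFC 2.57, SE 0.33, exact test FDR = 7.84e-11). Pdcd1 (ENSMUSG00000026285, chromosome 1, 94038305 to 94052553), which encodes PD-1, was at 0.0164, 0.0693, 0.0886, 0.0498 and 0.0445 RPKM in germ-free mice and at 0.0654 to 0.579 RPKM, median 0.216, in humanized mice. Humanized mouse 5 lay within the germ-free range and the other 5 above it. The LFC was 2.33 (SE 0.58, exact test FDR = 8.48e-04), from 2 to 10 reads per germ-free mouse and 6 to 53 per humanized mouse, and the quasi-likelihood test did not call it (FDR = 0.0108). No germ-free mouse reached the cutoff of the filter for Pdcd1 and 5 humanized mice did, so it was tested only because it was high there. Without any 1 of the 6 humanized mice Pdcd1 failed the low-expression filter and could not be tested.

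Havcr2, the receptor TIM-3, had 0.525, 0.618, 0.553, 0.718 and 0.605 RPKM in germ-free mice and 0.139 to 1.26 RPKM, median 0.798, in humanized mice, and did not pass (LFC 0.35, SE 0.39, exact test FDR = 0.588). Humanized mouse 5 was the lowest of all 11 mice and humanized mouse 2 the highest. Cd28, Ctla4 and Icos are neighbours on chromosome 1 between 60716800 and 61000320, and encode the costimulatory receptor CD28, its inhibitory counterpart CTLA-4 and the costimulator ICOS. Their LFC values were 0.87 (SE 0.43, exact test FDR = 0.136), 1.51 (SE 0.50, FDR = 0.0188) and 0.91 (SE 0.47, FDR = 0.160), and groups overlapped for each. Without humanized mouse 5, which was the lowest of the humanized mice for all 3, Ctla4 (LFC 1.71, exact test FDR = 0.00109) and Icos (LFC 1.13, FDR = 0.00953) passed. Lag3, an inhibitory receptor for MHC class II, had an LFC of 0.75 (SE 0.29, exact test FDR = 0.0617).

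**Figure D2:**
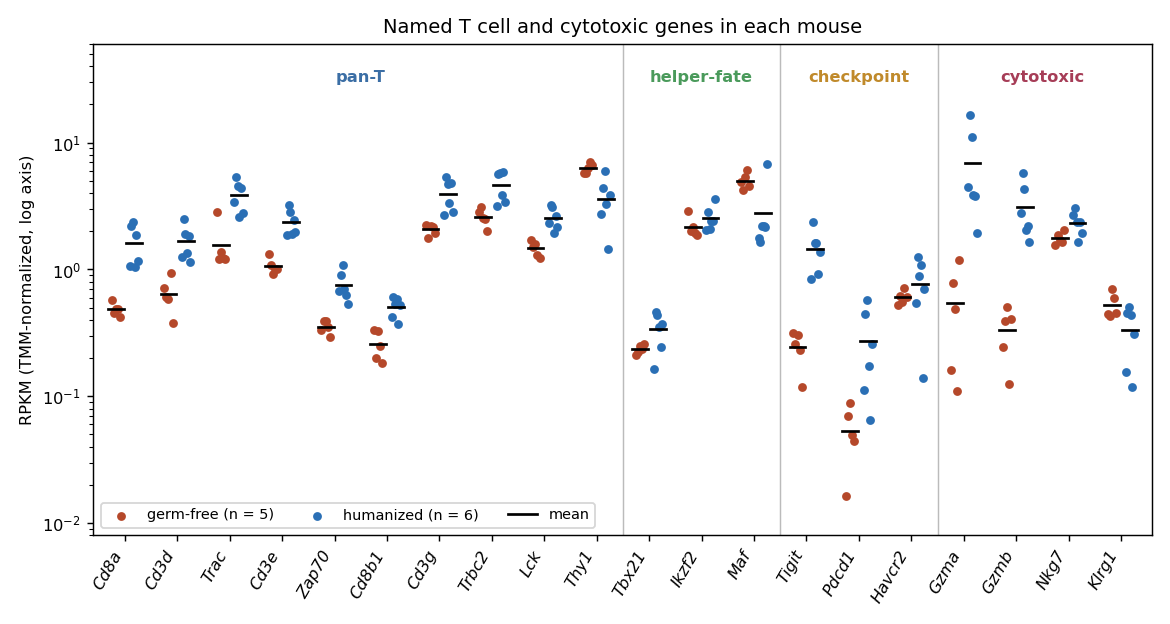
TMM-normalized RPKM (y axis, log scale) of the 20 named members in each of 5 germ-free and 6 humanized mice, grouped by role, with black lines at the group means. Gzma, Gzmb, Tigit and Cd8a are separated between the groups, while Nkg7, Havcr2, Ikzf2 and Klrg1 overlap, and 1 humanized mouse stands alone for Maf at 6.83 RPKM.

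Of 17 tested pan-T genes, 9 rose and 0 fell, beside 9.2% and 10.1% of all tested genes, with a median LFC of 0.96. All 9 were at the cutoff of the filter in every germ-free mouse. They included the receptor chains Trac and Trbc2, the 3 CD3 genes Cd3d, Cd3e and Cd3g, both CD8 genes, and the kinases Lck and Zap70. Cd8a (ENSMUSG00000053977, chromosome 6, 71373427 to 71379171), the alpha chain of CD8, had the largest difference of the pan-T genes. It was at 0.578, 0.452, 0.492, 0.491 and 0.425 RPKM in germ-free mice and at 1.04 to 2.39 RPKM, median 1.52, in humanized mice. The groups did not overlap, and the mean rose 3.33-fold (LFC 1.74, SE 0.25, exact test FDR = 2.52e-08). Its neighbour Cd8b1 (ENSMUSG00000053044, chromosome 6, 71322836 to 71337477), the beta chain found on conventional CD8 T cells, had 0.336, 0.202, 0.326, 0.248 and 0.182 RPKM in germ-free mice and 0.371 to 0.608 RPKM, median 0.528, in humanized mice. The groups were separate here too, with a smaller LFC of 0.96 (SE 0.23, exact test FDR = 0.00127) that rests on 15 to 37 reads per mouse. Cd8b1 no longer passed without germ-free mouse 2 (exact test FDR = 0.0106) or germ-free mouse 5 (FDR = 0.0110), with total-count normalization (FDR = 0.0174) or with scaling to epithelial genes (FDR = 0.0697).

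The 3 CD3 genes, which encode the signalling chains around the T cell receptor, lie side by side on chromosome 9 between 44969572 and 45009590 and moved together. Cd3d was at 0.719, 0.607, 0.582, 0.932 and 0.378 RPKM in germ-free mice and 1.15 to 2.48 RPKM, median 1.59, in humanized mice (LFC 1.37, SE 0.27, exact test FDR = 5.08e-05). Cd3e was at 1.33, 1.08, 0.917, 1.0 and 1.02 RPKM in germ-free mice and 1.86 to 3.21 RPKM, median 2.22, in humanized mice (LFC 1.15, SE 0.18, exact test FDR = 3.26e-06). Cd3g was at 2.25, 1.77, 2.22, 2.17 and 1.94 RPKM in germ-free mice and 2.67 to 5.38 RPKM, median 4.05, in humanized mice (LFC 0.94, SE 0.20, exact test FDR = 5.00e-04). All 6 humanized mice were above all 5 germ-free mice for each of the 3 genes, but Cd3g did not pass with scaling to epithelial genes (exact test FDR = 0.0512). Cd247, which encodes the zeta chain of the same complex, had an LFC of −0.13 (SE 0.10, exact test FDR = 0.490), but 56.4% of its exon bases in GENCODE M21 also lie in exons of Pou2f1 on the opposite strand, and the library kit does not mark strand, so reads of these shared bases cannot be told apart and the value for Cd247 is uncertain.

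Trac, the constant region of the alpha chain, was at 2.84, 1.20, 1.37, 1.24 and 1.21 RPKM in germ-free mice and 2.61 to 5.35 RPKM, median 3.91, in humanized mice. Germ-free mouse 1 stood above its group and within the humanized range. Trac rose (LFC 1.29, SE 0.29, exact test FDR = 3.88e-04) with 26 to 89 reads per mouse, but did not pass with scaling to epithelial genes (FDR = 0.0123). Trbc2, a constant region of the beta chain, was at 2.82, 3.12, 2.55, 2.50 and 2.03 RPKM in germ-free mice and 3.19 to 5.90 RPKM, median 4.79, in humanized mice, without overlap. It rose by an LFC of 0.84 (SE 0.21, exact test FDR = 0.00278), whereas its copy Trbc1 did not pass (LFC 0.48, SE 0.18, exact test FDR = 0.0765). The transcripts of the 2 copies are identical at 597 of 681 aligned bases (87.7%), so reads may have been split between them and the single values are uncertain. Their summed expression was 3.81, 4.03, 3.13, 3.32 and 2.70 CPM (counts scaled to library size) in germ-free mice and had a median of 5.58 CPM in humanized mice, and the humanized mean was 1.60 times the germ-free mean. Trbc2 lost its call without germ-free mouse 3 (exact test FDR = 0.0135), 4 (FDR = 0.0137) or 5 (FDR = 0.0180) or humanized mouse 2 (FDR = 0.0116), and also with the quasi-likelihood test (FDR = 0.0102), total-count normalization (exact test FDR = 0.0296) and scaling to epithelial genes (FDR = 0.101).

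Lck, the kinase that phosphorylates the CD3 chains, was at 1.72, 1.51, 1.58, 1.30 and 1.24 RPKM in germ-free mice and 1.96 to 3.24 RPKM, median 2.48, in humanized mice (LFC 0.81, SE 0.15, exact test FDR = 1.60e-04). Zap70, the kinase recruited next, was at 0.334, 0.396, 0.394, 0.353 and 0.292 RPKM in germ-free mice and 0.534 to 1.09 RPKM, median 0.689, in humanized mice (LFC 1.09, SE 0.20, exact test FDR = 4.80e-05). Both were separate between the groups, but neither passed when libraries were scaled to epithelial genes (exact test FDR = 0.0570 and 0.0115). Lat, the adaptor downstream of these kinases, had an LFC of 0.38 (SE 0.26, exact test FDR = 0.351). For 8 of the 13 genes that rose, namely Gzma, Gzmb, Tigit, Cd8a, Cd8b1, Cd3d, Cd3e and Zap70, a two-sided exact permutation test of mean log2 CPM gave p = 0.00216, the smallest that 5 mice against 6 allow. The groups of these 8 genes did not overlap, so this p largely restates that separation, and no share over all tested genes was computed. For Lck, Cd3g, Trac, Trbc2 and Pdcd1 the same permutation test gave p = 0.00433, 0.00649, 0.00649, 0.00866 and 0.0152. Gzma, Tigit and Pdcd1 passed the filter only with the humanized mice.

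Cd4, the coreceptor of helper and regulatory T cells, had an LFC of 0.24 (SE 0.36, exact test FDR = 0.689) with germ-free values of 0.983, 0.716, 1.20, 0.782 and 0.891 RPKM and humanized values of 0.345 to 1.88 RPKM, median 1.02. Humanized mouse 5 was lowest and humanized mouse 2 highest of all mice, and the sign of the LFC turned when libraries were scaled to epithelial genes (−0.06). The surface proteins Cd2 (LFC 0.96, exact test FDR = 0.0665), Cd5 (1.26, FDR = 0.0295) and Cd6 (1.18, FDR = 0.0482) had LFC values as high as genes that passed, but their SE values were 0.39 to 0.46. Cd5 passed when humanized mouse 1 was left out (LFC 1.43, exact test FDR = 0.00818). Sh2d1a, a signalling adaptor, had 0 to 14 reads per mouse and failed the filter, and did not pass without it.

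Thy1, a surface protein of mouse T cells that fibroblasts and neurons also carry, was the pan-T gene with the lowest LFC. It was at 5.77, 5.73, 6.37, 7.08 and 6.70 RPKM in germ-free mice and at 1.44 to 5.93 RPKM, median 3.57, in humanized mice. Only humanized mouse 3 reached the germ-free range. The LFC of −0.81 (SE 0.26) did not pass (exact test FDR = 0.0163), but it did without humanized mouse 3 (LFC −1.01, FDR = 5.92e-04) and without humanized mouse 5 (LFC −0.65, FDR = 0.00516). In the same libraries, the summed expression of 8 fibroblast markers was 1450 to 1975 CPM in germ-free mice and 140 to 1072 CPM in humanized mice, highest in humanized mouse 3 and lowest in humanized mouse 5, and that of 10 enteric neuron and glia markers was 30.8 to 42.7 and 7.20 to 16.4 CPM. Their part in the Thy1 values was not tested.

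Of 6 tested helper-fate genes, which encode transcription factors that set the identity of helper and regulatory T cells, 0 rose and 0 fell, beside 9.2% and 10.1% of all tested genes, which for so few genes is near the background. Their median LFC was −0.0057. The quasi-likelihood test also called none, DESeq2 called Foxp3 (LFC 0.39, FDR = 0.00446), and 2 of the 6, Foxp3 and Maf, were below an unadjusted p of 0.05 in the exact test. Maf, which acts in several helper fates and in macrophages, was at 4.92, 4.26, 5.34, 6.08 and 4.54 RPKM in germ-free mice and 1.66 to 6.83 RPKM, median 2.18, in humanized mice. Humanized mouse 6, at 6.83 RPKM, was the highest of all mice, while the other 5 lay between 1.66 and 2.21 RPKM, below every germ-free mouse. With all mice the LFC was −0.84 (SE 0.33, exact test FDR = 0.0395), and without humanized mouse 6 it was −1.33 (FDR = 1.78e-21). The 10 smooth muscle markers summed to 611 CPM in humanized mouse 6 and 77.7 to 247 CPM in the other humanized mice, compared with 571 to 1744 CPM in germ-free mice. Macrophage and dendritic cell markers summed to 340 CPM in humanized mouse 6, within the 184 to 483 CPM of the other humanized mice. Neuron and glia markers summed to 16.3 CPM there and 7.20 to 16.4 CPM in the others. The part of these cells in the Maf values was not tested.

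Ikzf2, which encodes Helios of regulatory T cells, was at 2.88, 2.0, 2.16, 1.93 and 1.87 RPKM in germ-free mice and 2.04 to 3.60 RPKM, median 2.42, in humanized mice. The groups overlapped, and the LFC was 0.24 (SE 0.16, exact test FDR = 0.293), or −0.09 when libraries were scaled to epithelial genes. Tbx21, which encodes the T helper 1 factor T-bet, was at 0.210, 0.223, 0.247, 0.238 and 0.259 RPKM in germ-free mice and 0.164 to 0.465 RPKM, median 0.360, in humanized mice (LFC 0.53, SE 0.25, exact test FDR = 0.151). Of its humanized mice, 1 lay below and 1 within the germ-free range, and 4 above it. Foxp3, the defining factor of regulatory T cells, had an LFC of 0.39 (SE 0.11, exact test FDR = 0.0382), with germ-free values from 1.16 to 1.43 RPKM and humanized values from 1.42 to 1.91 RPKM. Its exons share 18.6% of their bases with Flicr on the same strand and 12.9% with Ccdc22 on the opposite strand, so its value is uncertain where reads fall on shared bases. Gata3 (LFC −0.64, SE 0.33, exact test FDR = 0.153), the T helper 2 factor, and Bcl6 (LFC −0.25, SE 0.16, FDR = 0.305), the factor of follicular helper cells, did not pass either. Eomes, a factor of memory and effector CD8 cells, had 4 to 21 reads per mouse and failed the filter, and in a run without it did not pass (LFC 1.64, exact test FDR = 0.0308).

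The humanized mice differed from one another more than the germ-free mice. The median coefficient of variation over the 35 members was 19.1% in germ-free and 39.9% in humanized mice, beside 10.4% and 16.5% over all tested genes, and it was larger in humanized mice for 27 of the 35 members and 15932 of 19863 tested genes. It was 30.5% and 68.1% for the checkpoint genes, for all 7 of which the humanized mice spread more. Humanized mouse 2 was the highest humanized mouse for 18 members and humanized mouse 3 for 13, and humanized mouse 5 was the lowest for 14, including 6 of 7 checkpoint genes. Humanized mouse 5 was nonetheless among the high mice for Cd8a (1.88 RPKM), Trac (4.38 RPKM) and Trbc2 (5.90 RPKM), so its low values were not shared by all members. Without humanized mouse 2 or 3 the median LFC of the members was 0.63 or 0.62. A map of all members by mouse shows these differences.

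**Figure D3:**
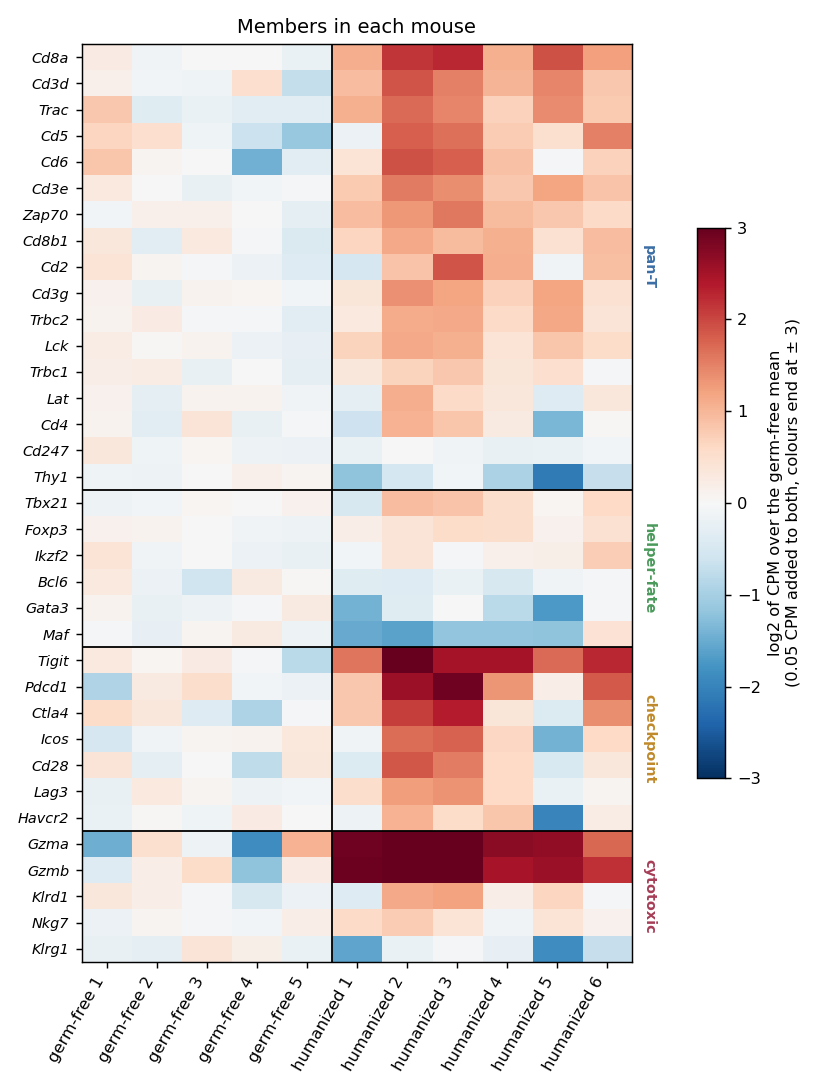
The 35 tested members (rows, by role and LFC) in each of the 11 mice (columns), coloured by the log2 ratio of CPM to the germ-free mean after adding 0.05 CPM, with colours ending at ± 3. Humanized mice 2 and 3 are the reddest columns, humanized mouse 5 is red for CD8 and CD3 genes and blue for Cd4, Icos, Havcr2, Gata3, Thy1 and Klrg1, and the Gzma and Gzmb rows are red in all 6 humanized mice.

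Expression was also set against the CD3 genes of the same mouse, as a description without a test. Summed CPM of Cd3d, Cd3e and Cd3g was 4.60 ± 0.517 (SD, n = 5) in germ-free and 9.86 ± 2.67 (SD, n = 6) in humanized mice, so a gene with equal CPM in both groups has a lower ratio in humanized mice. Gzmb CPM was 0.107 ± 0.0536 (SD, n = 5) of the summed CD3 CPM in germ-free and 0.437 ± 0.136 (SD, n = 6) in humanized mice, without overlap. Tigit (0.0508 ± 0.0145 and 0.144 ± 0.0433) and Cd8a (0.332 ± 0.0149 and 0.506 ± 0.0780) were also separate, with higher ratios in humanized mice. The ratio for Gzma was 0.113 ± 0.100 and 0.564 ± 0.322, and the groups overlapped because 1 germ-free mouse, at 0.259, exceeded humanized mouse 6, at 0.230. Cd8b1 (0.0791 ± 0.0170 and 0.0767 ± 0.0219), Zap70 (0.232 ± 0.0379 and 0.234 ± 0.0461) and Trac (0.139 ± 0.0480 and 0.162 ± 0.0204) had overlapping ratios in the 2 groups. The summed beta chain genes Trbc1 and Trbc2 (0.742 ± 0.119 and 0.557 ± 0.0462) and Lat (0.226 ± 0.0207 and 0.139 ± 0.0410) had lower ratios in all humanized mice. The summed pan-T genes other than CD3 had ratios of 9.21 ± 0.690 and 5.21 ± 0.816 without overlap, but without Cd247 and Thy1 they were 3.79 ± 0.421 and 3.20 ± 0.384 and overlapped.

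Cd4 was lower relative to CD3 in all humanized mice, at 0.807 ± 0.181 (SD, n = 5) in germ-free and 0.440 ± 0.177 (SD, n = 6) in humanized mice. Cd8a CPM divided by Cd4 CPM was 0.456, 0.490, 0.319, 0.487 and 0.371 in germ-free mice and 0.730 to 4.23, median 1.05, in humanized mice. The groups did not overlap, and humanized mouse 5 gave the value of 4.23, far above the others. Foxp3 was at 1.13 ± 0.129 and 0.729 ± 0.207 of CD3 with overlap, and Klrg1 (0.163 ± 0.0378 and 0.0483 ± 0.0223) and Thy1 (2.41 ± 0.352 and 0.655 ± 0.250) were lower in all humanized mice without overlap.

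**Figure D4:**
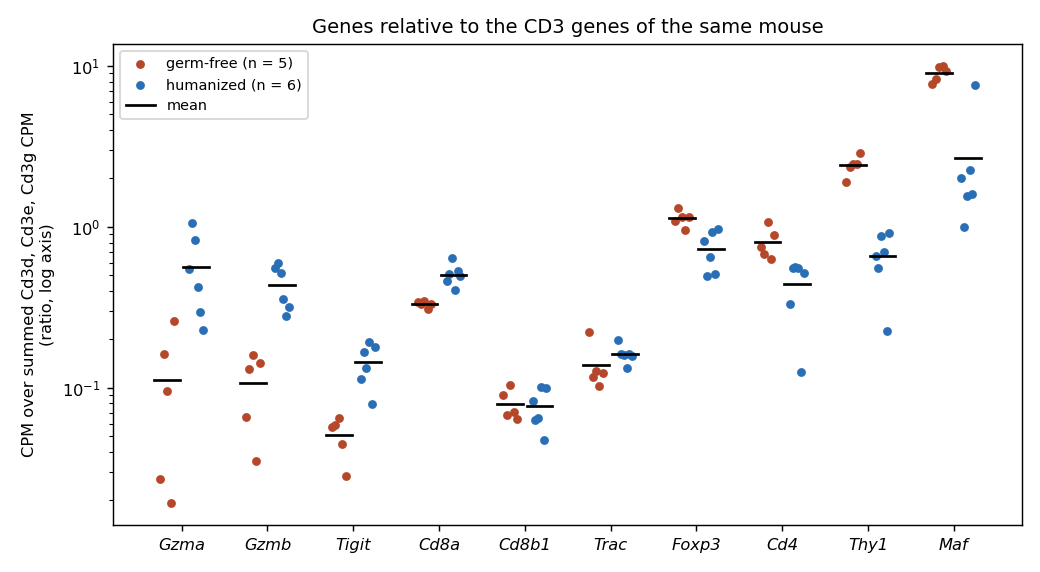
CPM of 10 members divided by the summed CPM of Cd3d, Cd3e and Cd3g of the same mouse (y axis, ratio on a log scale) in 5 germ-free and 6 humanized mice, with black lines at the means. Gzmb, Tigit and Cd8a are higher in all humanized mice, Cd8b1 and Trac overlap, and Cd4, Thy1 and Maf are lower in all humanized mice.

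Variable segments of T cell receptor genes, which were not among the members, were also counted. They lie on the same transcripts as constant regions such as Trac, Trbc1 and Trbc2, so they are not separate evidence. The table holds 156 such segments, of which 93 had reads in at least 1 mouse and 5 passed the filter, with 99 to 363 reads per mouse over all segments. Their summed expression was 2.84, 2.96, 2.96, 2.07 and 1.42 CPM in germ-free mice and 3.24 to 9.59 CPM in humanized mice, without overlap, and the means differed by a factor of 2.40. Taken by chain, only the gamma segments were separate, at up to 1.38 CPM in germ-free and from 1.59 CPM in humanized mice. The groups overlapped for alpha, beta and delta segments. Germ-free mice reached 0.523, 1.21 and 0.513 CPM for these, and humanized mouse 1 was at 0.245, 0.844 and 0.136 CPM. All 5 segments that passed the filter, Trbv16, Tcrg-V1, Tcrg-V4, Tcrg-V7 and Trgv2, reached its cutoff in enough mice only with the humanized mice. This favours higher values there, so no count of calls over them is given. Segments resemble one another, so single segments are uncertain. Reads fell on 28 to 41 different segments in germ-free mice and 26 to 58 in humanized mice.

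In a list of gamma delta T cell genes, Tcrg-C2 and Tcrg-V7 passed the filter only with the humanized mice and are not counted. Of the other 7 tested genes, 1 rose, the constant region Tcrg-C1 (LFC 1.70), and 1 fell, Zbtb16, a transcription factor of innate-like lymphocytes (LFC −1.68), beside 9.2% and 10.1% of all tested genes. Transcripts of Tcrg-C1 and Tcrg-C2 are 96.2% identical, so reads may be split between them. Of 29 other T cell receptor signalling genes, 3 were called higher (10.3%, near the background of 9.2%) and 1 lower. These were Themis, a T cell development factor (LFC 1.13), which passed the filter only with the humanized mice, Cd7, a surface protein of T and NK cells (LFC 1.09, SE 0.16, exact test FDR = 3.40e-07), the adaptor Sla2 (LFC 0.36), and phospholipase Plcg1 (LFC −0.31). Of 19 other cytotoxic and NK genes, 2 were called higher and 1 lower, near the backgrounds of 9.2% and 10.1%. The chemokine Xcl1 rose (LFC 1.04), the cystatin Cst7 (LFC 1.29) passed the filter only with the humanized mice, and Ncr1, a receptor of NK cells and some innate lymphoid cells, fell (LFC −1.07).

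Of 23 other helper and regulatory genes, 1 rose and 2 fell, no more than the 9.2% and 10.1% of all tested genes. Prdm1, which encodes Blimp-1 of effector T cells and plasma cells, rose (LFC 1.14), and Rora (LFC −1.15), a factor of T helper 17 and innate lymphoid cells, and Il2ra (LFC −1.04), the high-affinity interleukin-2 receptor chain, fell. Of 9 ligands of checkpoint receptors, Lgals9 (LFC 0.54) and Lgals3 (LFC 0.53), galectins that bind TIM-3 and LAG-3 respectively, rose, and 0 fell, beside 9.2% and 10.1% of all tested genes. Of 11 genes of naive cells and follicle homing, S1pr1 (LFC −1.11), which guides lymphocytes out of tissue, and the chemokine Ccl21a (LFC −1.08) fell, and 0 rose, beside the same shares.

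Markers of other cells were counted in the same libraries, to be read against the 9.2% higher and 10.1% lower of all tested genes. Of 13 B cell and plasma cell markers, 11 were at the cutoff of the filter in every germ-free mouse, of which 5 rose, led by Mzb1 (LFC 3.49) and Igj (LFC 3.21), and 0 fell, and their summed expression was 449 to 527 CPM in germ-free and 702 to 1647 CPM in humanized mice. All 11 epithelial markers of the colon were expressed in both groups, and 2 rose, Krt18 (LFC 0.48) and Lgals4 (LFC 0.46), with sums of 13613 to 17487 and 17430 to 21193 CPM that overlap. Smooth muscle markers fell in 10 of 10 and fibroblast markers in 7 of 8. Neuron and glia markers fell in 8 of 10 (4 of which passed the filter only with the germ-free mice) and endothelial markers in 1 of 7. All 7 endothelial LFC values were below 0, however. At FDR below 0.05, 5 of the 7 were lower (14.6% of all tested genes), and 4 were lower without overlap (9.73%). Endothelial sums were 110 to 136 CPM in germ-free and 17.4 to 98.8 CPM in humanized mice. Of 15 macrophage and dendritic cell markers, Cd14 rose and Mrc1 and Zbtb46 fell, counts near the background, and of 5 tested mast cell markers 0 passed in the exact test. Of 8 innate lymphoid cell markers, Areg rose and Ncr1 fell. At FDR below 0.05, 4 of these 8 were lower, beside 14.6% of all tested genes, and 3 were lower without overlap, beside 9.73%. No marker of these lists was at 0 in all mice. Their part in the differences of the T cell genes was not tested.

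**Figure D5:**
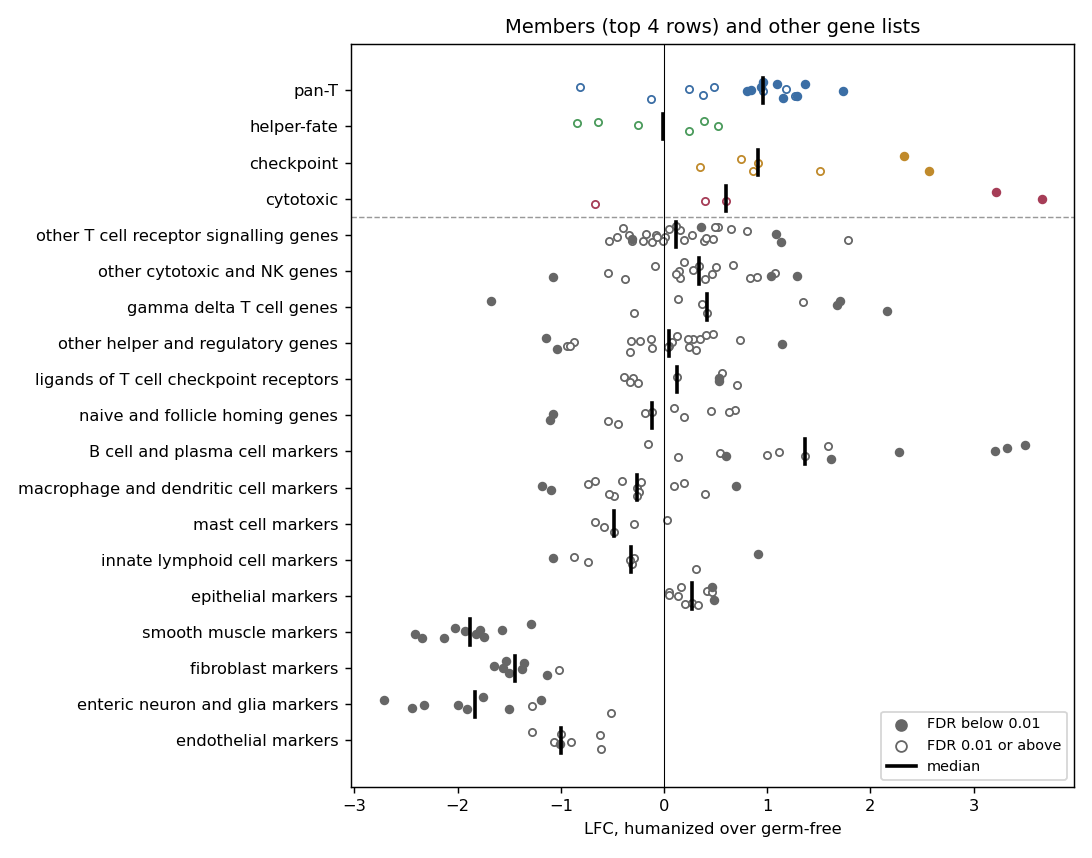
LFC (x axis, humanized over germ-free) of each tested gene in the 4 roles of T cell and cytotoxic genes (top, coloured) and 15 other lists (grey), with filled points for FDR below 0.01 in the exact test and bars at the median. Medians lie at 0.96 for pan-T, −0.0057 for helper-fate, 0.91 for checkpoint and 0.60 for cytotoxic genes, and at −1.88 for smooth muscle markers.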

How the data were processed

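RNA was measured in colon tissue of 11 separate mice. The authors prepared polyA libraries with an unstranded kit, aligned 101 bp paired-end reads to mm10 with TopHat2 2.1.0 and Bowtie2 2.2.3, and counted reads per gene with featureCounts (Subread 1.4.6-p5). The deposited values are raw counts without normalization, with gene positions and coding lengths in the same table. Groups were taken from the sample labels. Counts were filtered with filterByExpr (at least 10 counts, a total of 15, a large group size of 10 and a proportion of 0.7), normalized with TMM, and compared with the exact test of edgeR 4.0.16 in R 4.3.3 over all tested genes, with Benjamini–Hochberg correction at FDR below 0.01. SE values are those of the quasi-likelihood fit, since the exact test has none. RPKM uses TMM-normalized libraries and the deposited lengths, and permutation tests use log2 CPM with a prior count of 2. Comparisons of RPKM between genes depend on these lengths.

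The members and lists were chosen with earlier results of these data known, and the promoter motifs too. Values in every germ-free mouse, and the range and median of the humanized mice, are given for each member below FDR 0.01, the 2 members of largest mean RPKM in each role, and the ones at either end of the LFC range of a role. Of the other lists, at most 3 genes that passed are named from each end of the LFC range, and several marker lists are given by counts alone. Cd4 and the 4 members that failed the filter are given in addition. Exon overlaps come from GENCODE M21 and promoters from RefSeq. Alternatives were the quasi-likelihood test, DESeq2 1.42.0, other normalizations, including one to 11 epithelial genes, other filters and thresholds, leaving out each mouse, and a replicate block. Scripts were tested on simulated data. P-values set the group difference against the spread between these mice, estimated with information shared across genes, and do not cover variation between donors. Library size limits precision for genes with few reads.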

Additional observations from a re-analysis of the deposited data

Results flagged for a closer look

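In 70 groups of mice, 2 for each of the 35 members, the highest or lowest mouse was compared with its nearest neighbour relative to the range of the group (Dixon's ratio), which by chance singles out about 1 in 20 groups. Maf was at 6.83 RPKM in humanized mouse 6, against 2.21 RPKM in the next mouse of the group (ratio 0.893, critical value 0.625). Trac was at 2.84 RPKM in germ-free mouse 1, against 1.37 RPKM in the next mouse of the group (ratio 0.900, critical value 0.710). Without humanized mouse 6, Maf had an LFC of −1.33 (exact test FDR = 1.78e-21), and Trac kept its call without germ-free mouse 1. No cause of either value was tested.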

How the results depend on the processing

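The 13 members that rose in the exact test were 11 with edgeR's quasi-likelihood test, 14 with DESeq2, 13 with RLE or upper-quartile normalization, 11 with total counts, 13 without a filter, 10 with at least 10 counts in every mouse, 17 at FDR below 0.05 and 9 with an absolute LFC above 1. They were 7 after scaling to 11 epithelial genes, which ended the calls of Zap70, Lck, Cd3g, Trac, Cd8b1 and Trbc2. Leaving out 1 mouse gave 11 to 14 members higher and 0 to 1 lower (Thy1 without humanized mouse 3 or 5, Maf without humanized mouse 6). Members lower were 0 in the main comparison, 1 with DESeq2 (Thy1), 2 with total counts, 3 with epithelial scaling (Maf, Thy1 and Bcl6) and 2 at FDR below 0.05. The median LFC of the members was 0.66 with total counts and 0.51 with epithelial scaling, where the median of all tested genes shifted to −0.18 and −0.32, so that the members lay 0.83 and 0.84 above it. Leaving out 1 mouse gave medians of 0.62 to 0.88. All tested genes split into 1827 higher and 1999 lower in the main comparison, 773 and 3609 with total counts and 421 and 5836 with epithelial scaling. They were 1401 and 1298 with the quasi-likelihood test, 2185 and 2182 with DESeq2, 1788 and 2009 with RLE and 1563 and 2169 with upper-quartile normalization. Without a filter they were 1577 and 1954 of 30533 genes, and with at least 10 counts in every mouse 1540 and 1716 of 17065. At FDR below 0.05 they were 2780 and 2905, and with an absolute LFC above 1 they were 405 and 1273. With 1 mouse left out, 1336 to 2088 were higher and 1486 to 2323 lower. The signs of Ikzf2 (−0.0857) and Cd4 (−0.0620) turned with epithelial scaling. Cd8a, Gzma, Gzmb and Tigit passed under every alternative in which they were tested. Over 759 values of single members under 22 alternatives, 709 kept direction and call, 28 lost the call, 20 gained it and 2 changed sign.

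Mice are numbered within groups, but same-numbered mice did not deviate together (r = −0.0539, −0.133, 0.0910, 0.0884 and −0.0691). A fit with a replicate block called 5 members higher (Cd8a, Gzma, Gzmb, Tigit and Zap70) and 1 lower (Maf), with 506 genes called in each direction. Depth limits Pdcd1, Prf1, Ifng, Eomes and Sh2d1a most.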
